A study of Mus musculus with 2 samples.

Results

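The 31 genes described here encode glutamate receptor subunits and the postsynaptic scaffolds that hold them at the excitatory synapse. They were listed by family, with earlier results of these data known: 4 subunits of AMPA receptors (Gria1 to Gria4), 7 of NMDA receptors (Grin1, Grin2a to Grin2d, Grin3a and Grin3b), 5 of kainate receptors (Grik1 to Grik5), the delta receptor Grid1, 7 metabotropic receptors (Grm2 to Grm8), 4 scaffolds of the Dlg family and 3 of the Shank family. All 31 were found among the 21728 protein-coding genes counted. Fragments of open chromatin were counted over each gene body plus 2 kb upstream, on the mm10 build, and are given as CPM, the fragments per 1000000 fragments of the same nuclei.

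Chromatin accessibility of single nuclei was measured in 2 libraries, 1 from sham and 1 from stroke brains, both at 48 h. The mice were wild-type young adult C57BL/6J males of 8 to 12 weeks, and each library pooled nuclei of 4 brains. In the stroke group the middle cerebral artery was blocked by a filament for 1 h and then reperfused, whereas in the sham group the filament was inserted and no occlusion was held. The olfactory bulbs and cerebellum were left out of both groups, and the stroke pool held ipsilateral hemispheres while the sham pool was described as brains, so that injury and the tissue taken cannot be told apart.

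Glutamate is the main excitatory transmitter of the brain. AMPA receptors carry the fast synaptic current, NMDA receptors open when glutamate binding coincides with depolarization and let calcium in, kainate receptors act on both sides of the synapse, and metabotropic receptors signal through G proteins. Dlg and Shank proteins are layered under the postsynaptic membrane and tie the receptors to one another and to the cytoskeleton. Excess glutamate acting on NMDA receptors is a classical route of neuronal injury in ischemia.

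Called nuclei held 74812348 fragments in sham and 88192915 in stroke. In sham 6817 of 6979 barcodes, and in stroke 5054 of 8740, had over 20% of their fragments in peaks and were kept. Kept nuclei held a median of 10356 fragments in sham and 9898 in stroke, with 40.4% and 34.3% of fragments in peaks, and 42 barcode sequences occurred among the kept nuclei of both libraries. With 1 library in each group no difference between groups could be tested, and the 95% intervals below cover counting error only. A gene is called higher or lower below when its ratio passed 1.5-fold, which is a size and not a test.

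Nuclei were sorted into 7 classes by marker genes and by their profile over other genes, leaving out the 31 genes, their partners and any gene that overlaps them. Sham and stroke had 1892 and 968 glutamatergic neuron-like nuclei, 629 and 305 nuclei like striatal spiny projection neurons (SPN-like), 1291 and 558 other GABAergic neuron-like nuclei, and 599 and 677 astrocyte-like nuclei. Oligodendrocyte-like nuclei numbered 85 and 131, nuclei like oligodendrocyte precursors (OPC-like) 113 and 128, and microglia-like nuclei 44 and 265. The markers of the microglia-like class included Ptprc, Itgam and Cd68, which other myeloid cells share. Macrophages and granulocytes had no class of their own, so that this class may hold them. When every other marker was held out, the markers not used were 1.26-fold above the kept nuclei as a whole in the glutamatergic class, the weakest of the 7, and between 2.15-fold and 8.0-fold in the other six. The classes held 68.3% of kept nuclei in sham and 60.0% in stroke, and doublets were not removed. Fewer cells of a type and less open chromatin per cell cannot be told apart in values over a whole library.

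Dlg4, which encodes the scaffold PSD-95, had the densest signal for its length, at 3.14 and 2.53 CPM per kb in sham and stroke. Shank1, a scaffold deeper in the postsynaptic density, was at 2.9 and 2.23, and Grin1, the subunit that every NMDA receptor needs, was at 2.58 and 2.14 CPM per kb. The kainate subunit Grik5 was at 2.23 and 1.66, Shank3 at 2.07 and 1.52 and the presynaptic receptor Grm2 at 1.99 and 1.49 CPM per kb. These 6 loci were the densest of the 31 in both libraries, and each was less dense in stroke. Their windows were 15 to 64.5 kb long, against 186 to 924 kb for the 6 sparsest loci below. The part of window length in this ranking was not tested. The windows of Dlg4, Shank1 and Grik5 also overlap those of other genes.

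The sparsest locus for its length in sham was Grik1, at 0.201 and 0.222 CPM per kb in sham and stroke. Grm8 was at 0.233 and 0.232, Grik2 at 0.266 and 0.241, Grin3a at 0.316 and 0.332, Grm7 at 0.322 and 0.313 and Gria3 at 0.323 and 0.307 CPM per kb. Grik1, Grm8 and Grik2 were also the sparsest 3 in stroke. The span from Grik1 to Dlg4 far exceeded the difference between libraries at any single locus.

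**Figure D1:**
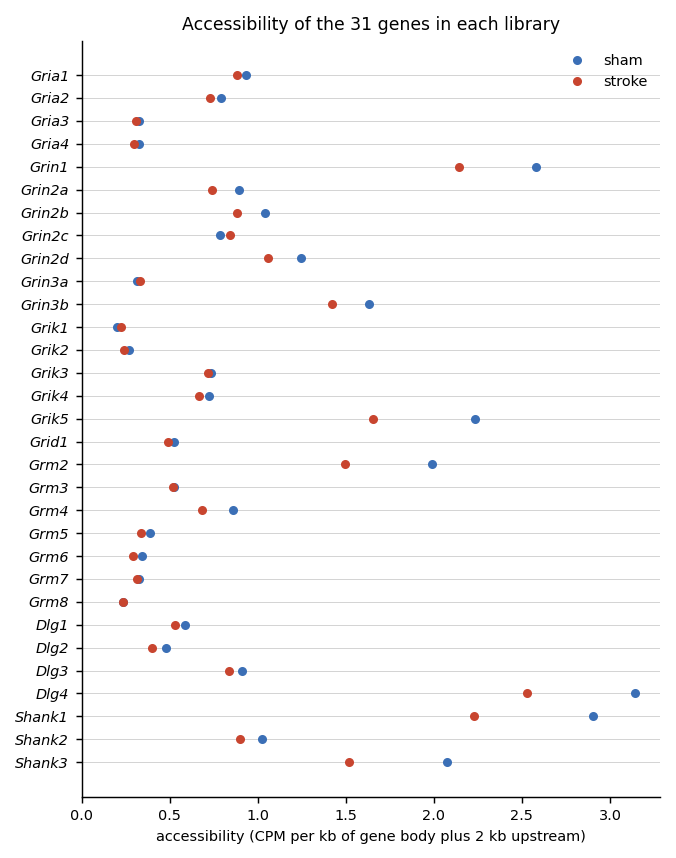
Accessibility of the 31 genes in sham and stroke, in CPM per kb of gene body plus 2 kb upstream, over all kept nuclei with 1 library per group. Dlg4 is densest at 3.14 in sham and 2.53 in stroke, and Grik1 is sparsest at 0.201 and 0.222.

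Over all kept nuclei, 28 of the 31 genes had a lower CPM in stroke than in sham, but none passed 1.5-fold in either direction, where 6.19% of 18964 genes with at least 100 fragments were higher and 0.29% lower by that fold. The median log2 ratio of stroke over sham was -0.15 for the 31 genes and -0.05 for all genes tested. Shank3 was lowest at 129.9 and 95.1 CPM (ratio 0.732, 0.707 to 0.758), followed by Grik5 at 144 and 107 CPM (ratio 0.742) and Grm2 at 29.8 and 22.4 CPM (ratio 0.751). Shank1 was at 152 and 117 CPM (ratio 0.768) and Grm4 at 86.6 and 68.7 CPM (ratio 0.793).

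The 3 genes above 1 were Grik1 at 79.6 and 88.1 CPM (ratio 1.11, 1.07 to 1.15), Grin2c at 15.8 and 16.9 CPM (ratio 1.07, 0.980 to 1.17) and Grin3a at 58.8 and 61.8 CPM (ratio 1.05, 1.0 to 1.1). Grm8 (0.993) and Grm3 (0.988) came next. How many genes lay on the lower side depended on the scaling, with 28 of 31 for all fragments, 23 for fragments over gene windows and 15 for fragments over promoters. Counted over promoters alone, 3 of 30 genes passed the fold, all lower (Grm2, Grm4 and Grin2d, background 3.69% higher and 1.35% lower). Over all called barcodes, without the 20% filter, 8 were lower and 1, Grik1, higher (background 17.7% higher and 18.5% lower). Promoter fragments made up 16.6% of the total in sham and 15% in stroke, so that scaling to them moved every log2 ratio up by 0.15. The medians of the 31 genes and of all genes moved alike, so that the gap between them stayed the same. Neuron-like classes also made up a smaller share of the stroke nuclei, and its part in these ratios was not tested at the level of the library.

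The classes were then compared with one another. A gene was called in a class when its CPM passed 1.5-fold of that in the other 6 classes, in the same direction in sham and in stroke, and the background is the share of 16820 genes so called. Of the 31 genes, glutamatergic neuron-like nuclei had 3 higher (background 4.87%) and 4 lower (9.44%). SPN-like nuclei had 5 higher (5.24%) and 3 lower (12.1%), and other GABAergic neuron-like nuclei had 4 higher (3.66%) and 1 lower (4.66%). Astrocyte-like nuclei had 1 higher (15.2%) and 19 lower (16.6%). Oligodendrocyte-like nuclei had 2 higher (8.92%) and 11 lower (16.3%), OPC-like nuclei 3 higher (7.03%) and 9 lower (9.88%), and microglia-like nuclei 0 higher (8.76%) and 20 lower (14.0%).

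As shares, 61.3% of the 31 genes were lower in astrocyte-like nuclei and 64.5% in microglia-like nuclei. The shares called higher in glutamatergic, SPN-like and other GABAergic nuclei were 9.68%, 16.1% and 12.9%. The microglia-like values of sham rest on 173683 fragments in all, and Grin1, for example, had 3 and 83 fragments there in sham and stroke. The 44 microglia-like nuclei of sham also had vascular markers at 1146 CPM beside microglia markers at 1289.7, against 491 and 1366 in stroke, and the part of that difference was not tested. Over promoters alone, 5 of the 18 pairs called higher passed the fold in both libraries and 16 stayed above 1. Scaled to fragments over promoters, 12 passed and all 18 stayed above 1.

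The classes had been planned from the marker gate alone, and the sorting by profile was added after the data were seen, so that the calls of the gate are given beside those above. The gate held 264 and 119 glutamatergic, 524 and 171 SPN-like, 222 and 128 other GABAergic and 298 and 368 astrocyte-like nuclei in sham and stroke, 140 and 120 oligodendrocyte-like, 143 and 120 OPC-like and 139 and 165 microglia-like ones. When every other marker was held out of the gate alone, the markers not used were 1.09-fold above all kept nuclei in the glutamatergic class. In the same nuclei the unused microglia markers were also at 1.09-fold. The other 6 classes of the gate were between 1.89-fold and 2.88-fold for their own unused markers. The later passes sorted all nuclei again and did not only add to the gate. Of 2921 nuclei in the gate 1824 (62.4%) kept their class, 614 moved to another and 483 to none. The nuclei that kept it were 7 of 139 and 106 of 165 for the microglia-like class in sham and stroke, 44 of 140 and 63 of 120 for the oligodendrocyte-like, 53 of 143 and 67 of 120 for the OPC-like, 190 of 264 and 77 of 119 for the glutamatergic and 205 of 298 and 316 of 368 for the astrocyte-like class. They were 385 of 524 and 94 of 171 for the SPN-like and 150 of 222 and 67 of 128 for the other GABAergic class. The gate called 9 pairs higher and 17 lower, against 18 and 67 above. Of the 67 lower pairs 16 stayed called and 44 stayed below 1 in both libraries, and after 1 pass by profile 36 stayed called.

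By the gate alone, astrocyte-like nuclei had 12 of 30 genes lower (background 9.88%), and Grin2c (2.29 and 3.69) and Grm3 (1.64 and 1.83) higher (10.1%). The 12 were Gria1, Gria3, Gria4, Grin1, Grin2a, Grik2, Grm2, Grm7, Dlg2, Shank1, Shank2 and Shank3. In microglia-like nuclei 0 genes were lower (2.52%), so that none of the 20 lower calls of that class was kept, and Grm2 turned to higher (1.57 and 1.71, background 1.25%). Lower calls in the other classes were Grin2c in glutamatergic (5.34%), Grik1 in SPN-like (7.29%), Grm3 in other GABAergic (2.75%) and OPC-like (1.92%), and Grin3a in oligodendrocyte-like nuclei (3.05%).

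The pairs called higher both by the gate alone and by the classes sorted by profile were Grin2c in astrocyte-like, Grik2 (1.76 and 1.58) and Grm5 (1.78 and 1.8) in SPN-like, Grik1 (2.01 and 2.03) and Grin2d (1.72 and 1.67) in other GABAergic and Grik3 (1.59 and 1.7) in OPC-like nuclei. The shares of all genes called higher by the gate were 3.3% in SPN-like, 1.3% in other GABAergic and 1.58% in OPC-like nuclei. Shank1 was higher in glutamatergic nuclei (1.51 and 1.77, background 1.91%) by the gate alone. The glutamatergic pairs fell short of the fold in sham, with Grin2a at 1.42 and 1.82, Grm2 at 1.15 and 1.77 and Grm8 at 1.28 and 1.63. So did, in at least 1 library, Grid1 (1.39 and 1.4), Grm4 (1.6 and 1.45) and Grm7 (1.45 and 1.89) in SPN-like nuclei. In other GABAergic nuclei Grin3a was at 1.07 and 1.45 and Grik3 at 1.05 and 1.08, in OPC-like nuclei Grin3a at 1.28 and 1.32 and Grik1 at 1.47 and 1.41, and in oligodendrocyte-like nuclei 0 genes were higher (1.57%).

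**Figure D2:**
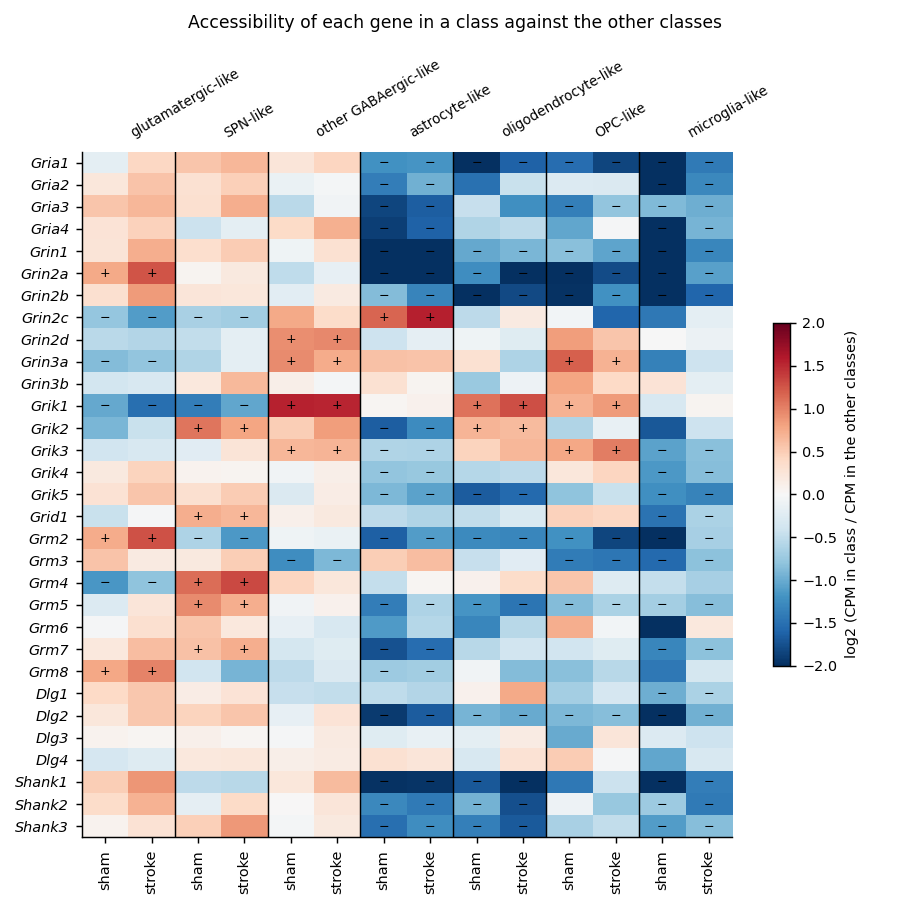
Log2 ratio of the CPM of each of the 31 genes in a class over that in the other 6 classes, in sham and stroke side by side, with a plus or a minus where the ratio passed 1.5-fold in both libraries. Grik1 in other GABAergic neuron-like nuclei (2.89 and 2.87) and Grin2c in astrocyte-like nuclei (2.25 and 2.95) carry a plus, while 19 of 31 genes carry a minus in astrocyte-like and 20 in microglia-like nuclei.

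In the classes sorted by profile, none of the 4 AMPA subunits was called higher by its window, and all 4 were lower in astrocyte-like and microglia-like nuclei. The class ratios of each family below are those of this sorting. Gria1, a subunit moved into synapses during plasticity, had ratios to the other classes (sham, then stroke, here and below) of 0.433 and 0.443 in astrocyte-like, 0.185 and 0.327 in oligodendrocyte-like, 0.347 and 0.280 in OPC-like and 0.192 and 0.376 in microglia-like nuclei. Gria2, which keeps most AMPA receptors closed to calcium, was at 0.385 and 0.512 in astrocyte-like and 0.239 and 0.410 in microglia-like nuclei. Gria3 was at 0.280 and 0.318 in astrocyte-like, 0.386 and 0.576 in OPC-like and 0.540 and 0.509 in microglia-like nuclei. Gria4, a subunit of fast-gating receptors, was at 0.272 and 0.327 in astrocyte-like and 0.173 and 0.525 in microglia-like nuclei. In SPN-like nuclei Gria1 came close to a call, at 1.46 and 1.58.

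The NMDA subunits differed among themselves. Grin1 was at 0.220 and 0.200 in astrocyte-like, 0.490 and 0.529 in oligodendrocyte-like, 0.562 and 0.482 in OPC-like and 0.220 and 0.406 in microglia-like nuclei. Grin2b, a subunit prominent in early development, was at 0.548 and 0.401, 0.244 and 0.286, 0.254 and 0.433 and 0.177 and 0.332 in the same 4 classes. Neither gene passed the fold in both libraries in a neuronal class. Grin2a, a subunit of mature forebrain synapses, was higher in glutamatergic neuron-like nuclei, at 486 CPM against 286 in sham (ratio 1.7, 1.65 to 1.75) and 469.9 against 198 in stroke (2.38, 2.28 to 2.48). It was at 0.242 and 0.169 in astrocyte-like, 0.425 and 0.165 in oligodendrocyte-like, 0.166 and 0.289 in OPC-like and 0.166 and 0.474 in microglia-like nuclei.

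Grin2c, a subunit known from cerebellar granule cells and astrocytes, was the 1 gene of the 31 called higher in astrocyte-like nuclei sorted by profile, whereas the gate alone also called Grm3. Grin2c was at 31.8 CPM against 14.1 in sham (ratio 2.25, 1.83 to 2.74) and 42.6 against 14.5 in stroke (2.95, 2.47 to 3.5). Scaled to fragments over promoters, which made up 25.4% and 22.9% of the astrocyte-like fragments in sham and stroke against 16.6% and 15% over all kept nuclei, the ratios were 1.43 and 1.93, short of the fold in sham. It was at 0.587 and 0.460 in glutamatergic and 0.636 and 0.619 in SPN-like nuclei. Grin2d, a subunit known from interneurons, was higher in other GABAergic neuron-like nuclei, at 97.9 CPM against 51.4 in sham (ratio 1.9, 1.77 to 2.04) and 95.4 against 49.1 in stroke (1.94, 1.75 to 2.16). Grin3a, a subunit that lowers calcium entry, was higher in the same class, at 91.1 CPM against 47.5 in sham (ratio 1.92, 1.78 to 2.06) and 86.5 against 51.5 in stroke (1.68, 1.51 to 1.87), but at 1.33 and 1.03 over its promoter alone. It was also higher in OPC-like nuclei, at 132 CPM against 57.6 in sham (ratio 2.29, 1.87 to 2.77) and 92.1 against 56.7 in stroke (1.63, 1.29 to 2.02), and lower in glutamatergic nuclei (0.550 and 0.581). Grin3b was called in no class. The windows of 8 of the 31 genes (Grin2c, Grin2d, Grin3a, Grin3b, Grik5, Dlg2, Dlg4 and Shank1) overlap windows of other protein-coding genes, whose fragments cannot be told apart from theirs.

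Among the kainate subunits, Grik1, known from interneurons, was higher in other GABAergic neuron-like nuclei, at 153 CPM against 53 in sham (ratio 2.89, 2.72 to 3.08) and 178 against 62 in stroke (2.87, 2.64 to 3.11). It was lower in glutamatergic (0.489 and 0.350) and SPN-like nuclei (0.384 and 0.488), so that the GABAergic classes lay on opposite sides of 1 for this gene. Grik1 was also higher in oligodendrocyte-like nuclei (2.11 and 2.44, from 77 and 128 fragments) and in OPC-like nuclei (1.62 and 1.81, from 103 and 136 fragments). The oligodendrocyte-like ratio of sham turned to the other side of 1 with 1000 to 100000 fragments in peaks (0.907) and with markers alone (0.796), and the OPC-like one with promoters alone (0.828). Grik2, a widely used kainate subunit, was higher in SPN-like nuclei, at 328 CPM against 157 in sham (ratio 2.09, 2.0 to 2.19) and 254 against 147 in stroke (1.73, 1.61 to 1.86). It was also called higher in oligodendrocyte-like nuclei (1.6 and 1.55, but 0.884 in sham with markers alone) and lower in astrocyte-like nuclei (0.320 and 0.419).

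Grik3 was higher in OPC-like nuclei, at 266 CPM against 155 in sham (ratio 1.71, 1.49 to 1.96) and 313 against 154 in stroke (2.04, 1.8 to 2.29), and in other GABAergic neuron-like nuclei (1.58 and 1.6). It was at 0.658 and 0.651 in astrocyte-like and 0.476 and 0.561 in microglia-like nuclei. The high-affinity subunits Grik4 and Grik5 were higher in no class. Grik4 was at 0.576 and 0.595 in astrocyte-like and 0.452 and 0.555 in microglia-like nuclei, and Grik5 was at 0.539 and 0.478 in astrocyte-like, 0.315 and 0.342 in oligodendrocyte-like and 0.425 and 0.395 in microglia-like nuclei. The delta receptor Grid1, which works in synaptic adhesion, was higher in SPN-like nuclei, at 595 CPM against 360.4 in sham (ratio 1.65, 1.6 to 1.7) and 543 against 344 in stroke (1.58, 1.5 to 1.66), and lower in microglia-like nuclei (0.359 and 0.647). Over its promoter alone, Grid1 was at 1.18 and 0.941 in SPN-like nuclei.

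Of the metabotropic receptors, Grm2 and Grm8, both presynaptic, were higher in glutamatergic neuron-like nuclei. Grm2 was at 39.4 CPM against 23.5 in sham (ratio 1.68, 1.51 to 1.86) and 34.3 against 14.2 in stroke (2.42, 2.07 to 2.84). It was lower in SPN-like (0.655 and 0.452), astrocyte-like (0.322 and 0.459), oligodendrocyte-like (0.412 and 0.404), OPC-like (0.432 and 0.282) and microglia-like nuclei (0.185 and 0.631). Grm8 was at 239 CPM against 139 in sham (ratio 1.72, 1.65 to 1.79) and 243 against 122 in stroke (1.99, 1.88 to 2.1) in the glutamatergic class and at 0.607 and 0.618 in astrocyte-like nuclei.

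Grm4, Grm5 and Grm7 were higher in SPN-like nuclei. Grm5, a postsynaptic receptor coupled to calcium release, was at 368 CPM against 191 in sham (ratio 1.92, 1.84 to 2.0) and 279.8 against 169 in stroke (1.66, 1.55 to 1.78). It was lower in astrocyte-like (0.382 and 0.650), oligodendrocyte-like (0.443 and 0.364), OPC-like (0.546 and 0.643) and microglia-like nuclei (0.624 and 0.553). Grm4, a presynaptic receptor, was at 160.5 CPM against 73.8 in sham (ratio 2.17, 2.04 to 2.32) and 151 against 60.7 in stroke (2.49, 2.26 to 2.75), and lower in glutamatergic nuclei (0.447 and 0.570). Grm7, a presynaptic receptor of low affinity, barely reached the call in SPN-like nuclei (1.5 and 1.66) and kept it in 3 of 13 other settings. Among the 3 is the setting without a minimum of fragments, which cannot change a ratio. Grm7 was at 0.300 and 0.346 in astrocyte-like and 0.403 and 0.563 in microglia-like nuclei.

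Grm3, a receptor of neurons and astrocytes, missed the call in astrocyte-like nuclei at 1.41 and 1.54, but was called higher there by the gate alone. It was lower in other GABAergic (0.423 and 0.539), OPC-like (0.380 and 0.368) and microglia-like nuclei (0.341 and 0.569). Grm6, the receptor of retinal bipolar cells, was called in no class.

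None of the 7 scaffold genes was higher in a class sorted by profile, but Shank1 was higher in glutamatergic nuclei by the gate alone. Dlg2, which encodes PSD-93, was at 0.266 and 0.316 in astrocyte-like, 0.527 and 0.495 in oligodendrocyte-like, 0.539 and 0.554 in OPC-like and 0.212 and 0.513 in microglia-like nuclei. Shank1 was at 0.254 and 0.256 in astrocyte-like, 0.310 and 0.225 in oligodendrocyte-like and 0.146 and 0.385 in microglia-like nuclei. Shank2 was at 0.408 and 0.376, 0.520 and 0.297 and 0.604 and 0.375 in those 3 classes, and Shank3 at 0.353 and 0.421, 0.389 and 0.313 and 0.463 and 0.553. The 3 Shank genes thus shared their low classes, in which 19, 11 and 20 of all 31 genes were lower. By the gate alone the Shank genes were called lower in astrocyte-like nuclei only. Dlg1, which encodes SAP97, was lower in microglia-like nuclei (0.506 and 0.647), and Dlg3 and Dlg4 were called in no class.

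The class differences were then traced to single stretches of chromatin. For each of the 18 pairs of a gene and a class sorted by profile in which it was higher, a tile of 500 bases was chosen in sham. It was the tile with the largest excess of cut sites (fragment ends) over the other classes, and the same tile was read in stroke. Stroke had no part in the choice of the tile. The pairs, however, had been called from both libraries over windows that cover the tiles, so that the stroke ratios are no independent reading. The sham values chose the tile and are given as a description.

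Among sites with at least 10 cut sites of the class in stroke, the 4 highest stroke ratios were those of Grid1, Grin2a, Grin2c and Grm8, of which Grin2c was at its start and the others in introns. In Grin2a the tile chr16:9768398-9768897, 226912 bases into the gene, had 369 cut sites from 177 glutamatergic neuron-like nuclei in sham and 192 from 93 in stroke. This corresponded to cut sites per 1000000 fragments of 15.4 against 0.976 in sham and 15.4 against 0.988 in stroke, where the ratio was 15.6 (9.62 to 26.9). In Grm8 the tile chr6:28091619-28092118, 43309 bases into the gene, had cut sites per 1000000 in the glutamatergic class of 13 against 0.300 in sham and 8.91 against 0.768 in stroke, where the ratio was 11.6 (6.63 to 21.9).

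In Grid1 the intronic tile chr14:35050108-35050607, 230250 bases into the gene, had cut sites per 1000000 in SPN-like nuclei of 14.7 against 0.475 in sham and 15 against 0.221 in stroke, where the ratio was 67.9 (29.2 to 193). The other GABAergic neuron-like nuclei had 5 cut sites in that tile in sham and 0 in stroke, which allows up to 0.554 per 1000000 by a limit of 3 counts. Over all 18 tiles chosen in sham, 13 had a stroke ratio with an interval above 1. Both ends of a fragment were counted, so that cut sites are not independent and the intervals of the tiles are too narrow. The call of each pair in stroke also favours ratios above 1. The other classes were pooled in these ratios, and the named class had the highest level of the 7 in 13 tiles in sham and in 9 in both libraries. These 9 were the tiles of Grid1, Grin2a, Grin2c, Grm2, Grm4, Grm7 and Grm8, that of Grik2 in oligodendrocyte-like and that of Grin3a in OPC-like nuclei.

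The 300 bases in or beside these 3 intronic tiles with most sham cut sites of the class are shown because of these stroke ratios, a choice made after the values were seen. The start of Grin2c is shown with the promoters. They are given on the strand of the gene, 5′ to 3′, from the RefSeq sequence of GRCm38.p6, which shares its coordinates with mm10. Capitals mark CAGATG on either strand, an E-box of the kind bound by proneural factors.
Grin2a intron, chr16:9768472-9768771, minus strand: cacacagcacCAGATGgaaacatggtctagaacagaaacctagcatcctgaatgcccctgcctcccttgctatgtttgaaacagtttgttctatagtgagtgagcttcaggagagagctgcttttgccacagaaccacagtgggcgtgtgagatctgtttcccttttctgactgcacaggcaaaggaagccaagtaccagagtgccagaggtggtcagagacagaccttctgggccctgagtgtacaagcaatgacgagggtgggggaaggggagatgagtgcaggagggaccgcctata
Grm8 intron, chr6:28091899-28092198, minus strand: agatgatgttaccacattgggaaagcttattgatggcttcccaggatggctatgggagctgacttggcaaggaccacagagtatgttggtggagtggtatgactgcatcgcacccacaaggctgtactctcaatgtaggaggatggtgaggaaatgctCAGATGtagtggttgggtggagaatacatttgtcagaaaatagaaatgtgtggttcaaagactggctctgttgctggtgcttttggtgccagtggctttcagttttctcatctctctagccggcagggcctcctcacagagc
Grid1 intron, chr14:35049963-35050262, plus strand: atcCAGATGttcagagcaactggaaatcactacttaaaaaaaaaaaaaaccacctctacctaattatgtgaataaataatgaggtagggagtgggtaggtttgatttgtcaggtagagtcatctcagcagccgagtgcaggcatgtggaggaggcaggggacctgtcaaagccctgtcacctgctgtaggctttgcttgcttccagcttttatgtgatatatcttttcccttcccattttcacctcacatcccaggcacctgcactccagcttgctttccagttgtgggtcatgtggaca

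CAGATG was present in the stretch of 300 bases at 6 of the 17 distinct sites, which are these 3, the Grm2 site of glutamatergic nuclei, an intronic site of Grik2 in SPN-like nuclei and one of Grik1 in oligodendrocyte-like nuclei. It was present in 21.4% of 34622 consecutive windows of 300 bases over the 31 loci. The match describes letters and not binding.

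Other sites lay at or before a start, or had lower stroke ratios. In front of Grm2 the tile chr9:106657595-106658094, centred at -1763 bases from the start, had cut sites per 1000000 in glutamatergic nuclei of 6.04 against 1.65 in sham and 5.78 against 1.59 in stroke, where the ratio was 3.63 (2.33 to 5.8). The Grin2c site of astrocyte-like nuclei was its own start, with cut sites per 1000000 of 9.94 against 1.04 in sham and 12.7 against 1.04 in stroke, where the ratio was 12.2 (7.6 to 19.9). The Grin3a site of OPC-like nuclei was also at the start, with 35.7 against 8.41 in sham and 22.5 against 7.67 in stroke, where the ratio was 2.93 (1.78 to 4.59). In Grik3 an intronic tile 212250 bases into the gene had cut sites per 1000000 in OPC-like nuclei of 27.1 against 8.31 in sham and 35.3 against 9.62 in stroke, where the ratio was 3.68 (2.48 to 5.28), and oligodendrocyte-like nuclei were above them at 49.2 and 56.3. The Grik1 tile of other GABAergic neuron-like nuclei was at its start, with 5.83 against 1.81 in sham and 11.3 against 1.86 in stroke, where the ratio was 6.05 (4.07 to 9.04). In that tile oligodendrocyte-like nuclei were at 12.8 in sham (6 cut sites) and microglia-like ones at 11.5 (2), and OPC-like nuclei were at 11.8 in stroke (11), all above the named class. Each of these ratios had an interval above 1 in stroke.

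Some tiles chosen in sham were not distinct in stroke. The Grm5 tile of SPN-like nuclei had a stroke ratio of 1.02 (0.680 to 1.47), and the Grin3a tile of other GABAergic nuclei one of 1.03 (0.727 to 1.43). The Grik2 tile of SPN-like nuclei was at 1.38 (0.721 to 2.46) and the Grik3 tile of other GABAergic nuclei at 2.33 (0.863 to 5.77). Stroke ratios had intervals above 1 for Grm4 in SPN-like nuclei at 3.73 (2.36 to 5.77), Grm7 in SPN-like nuclei at 3.56 (2.36 to 5.29), Grin2d in other GABAergic nuclei at 1.56 (1.16 to 2.08) and Grik1 in OPC-like nuclei at 3.24 (1.63 to 5.87). At the Grik1 tile of OPC-like nuclei, however, astrocyte-like nuclei of stroke had 83 cut sites, 17.5 per 1000000, against 12 and 12.9 in the OPC-like ones. At the Grin2d tile OPC-like nuclei were at 20.9 and 23.6 per 1000000 in sham and stroke against 14.2 and 12 in other GABAergic nuclei, and the Grin3a tile of the latter was the same start as that of OPC-like nuclei. In oligodendrocyte-like nuclei the Grik2 tile had 10 cut sites in sham and 4 in stroke, with a stroke ratio of 30.5 (6.32 to 129), and the Grik1 tile had 6 from 1 nucleus in sham and 0 in stroke, which allows up to 4.57 per 1000000 by the same limit.

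**Figure D3:**
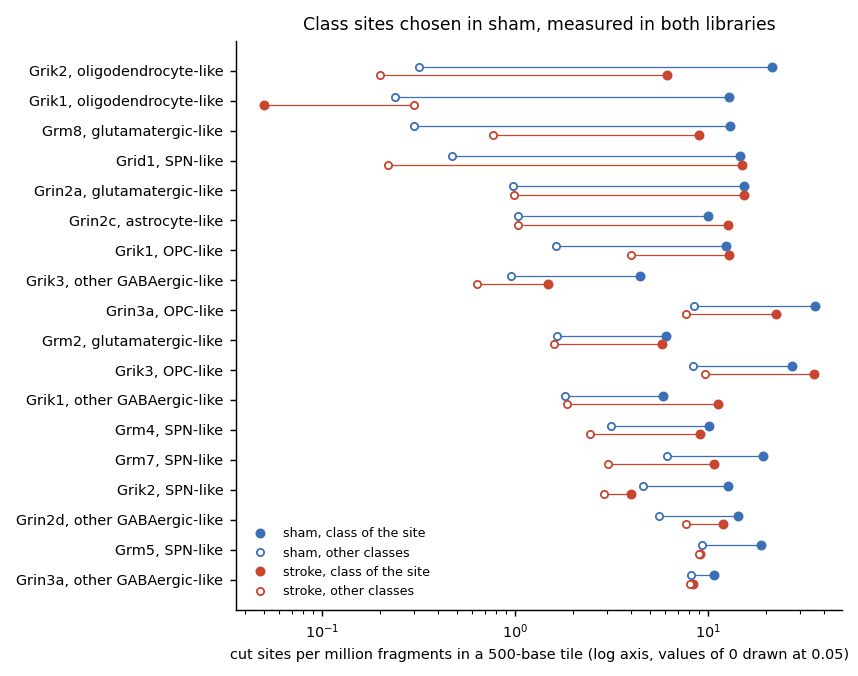
Cut sites per 1000000 fragments in the 500-base tile chosen in sham for each of the 18 gene and class pairs, in the class and in the other classes, for sham and stroke, on a log axis with 0 drawn at 0.05. The Grid1, Grin2a and Grm8 sites keep class and other classes far apart in both libraries, while those of Grm5 and of Grin3a in other GABAergic nuclei come together in stroke.

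Gene starts were described apart, since the long gene bodies hold many open sites, and only in the classes sorted by profile. The most open start, by fragments from 1000 bases before to 500 after, lay within 1 kb of the annotated gene start for 24 of the 31 genes. It lay further into the gene for 7, which were Shank2 (282617 bases), Shank3 (33267), Dlg4 (12774), Grm4 (7997), Grin2d (7949), Grin3b (3022) and Shank1 (2435). For 16 genes the most cut tile of the whole locus was over 1 kb from that start. The density of cut sites within 500 bases of the 31 starts was 2.34, 2.49 and 2.52 times that found 1 to 2 kb away in glutamatergic, SPN-like and other GABAergic nuclei, 2.86 times in both astrocyte-like and OPC-like nuclei, 1.74 times in oligodendrocyte-like and 1.67 times in microglia-like nuclei.

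**Figure D4:**
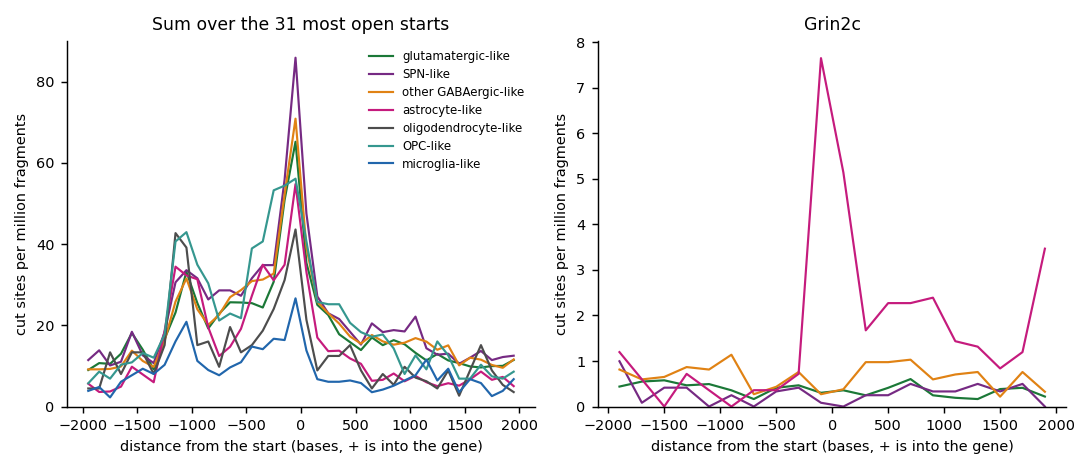
Cut sites per 1000000 fragments by distance from the most open start, summed over the 31 genes in bins of 100 bases for 7 classes (left) and for Grin2c in bins of 200 bases for 4 classes (right), with both libraries together. Within 500 bases of the starts the sum was lowest in microglia-like nuclei (128 per 1000000) and reached 380.5 in SPN-like and 381 in OPC-like nuclei, and the Grin2c start is tallest in astrocyte-like nuclei.

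At some starts a glial class was the more open one although the whole window was not. The Dlg1 start was at 22.9 and 20.5 CPM in astrocyte-like nuclei against 4.51 and 4.86 in the other classes, ratios of 5.09 (3.9 to 6.59) and 4.21 (3.2 to 5.53), while the ratios of its window were 0.703 and 0.667. The starts of Grik4 (1.82 and 2.08) and Grik5 (1.65 and 1.68) were also more open in astrocyte-like nuclei, in which both windows were called lower. Gene starts as a whole were also more open in this class. The most open starts of all genes held 28.2% and 25.4% of its fragments in sham and stroke, counted gene by gene, against 17.8% and 16.6% in the other classes, ratios of 1.58 and 1.53. Scaled to the fragments over all gene starts, the ratios were 3.21 and 2.75 for Dlg1, 1.15 and 1.35 for Grik4 and 1.04 and 1.09 for Grik5, so that of the 3 Dlg1 alone stayed past 1.5-fold.

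With at least 100 fragments in each library, 26 of the 31 starts could be called, and the background is the share of 12397 gene starts called by the same rule. Astrocyte-like nuclei had 5 higher (background 37.3%) and 13 lower (8.09%), and scaled to all gene starts 1 higher (9.77%) and 18 lower (17.8%). OPC-like nuclei had 7 higher (8.74%) and 7 lower (6.74%). Oligodendrocyte-like nuclei had 2 (10.9%) and 13 (12.3%), and microglia-like nuclei 0 (5.47%) and 21 (14.2%). Glutamatergic neuron-like nuclei had 1 higher (1.92%) and 2 lower (13.5%), with 5 higher when scaled to all gene starts (4.41%). SPN-like nuclei had 4 higher (3.08%) and 2 lower (10.8%), and other GABAergic neuron-like nuclei 3 (2.41%) and 2 (4.28%).

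In 7 of the 18 pairs called higher the start also passed the fold in that class in both libraries. They were Grin2c in astrocyte-like, Grm4 in SPN-like, Grik1, Grik3 and Grin2d in other GABAergic, Grin3a in OPC-like and Grik1 in oligodendrocyte-like nuclei. The Grik1 start was at 3.26 (2.37 to 4.47) and 4.05 (2.75 to 5.95) in other GABAergic nuclei, the Grik3 start at 1.55 and 2.3, and the Grin3a start at 4.07 and 2.56 in OPC-like nuclei. The Grik1 start of oligodendrocyte-like nuclei (3.33 and 3.92) rests on 5 and 9 fragments. The Grm4 start, under the minimum of 100 fragments, was at 1.78 and 4.59 in SPN-like nuclei. The Grin2c start was under it too, and neither is counted among the 26. It had 26 and 45 fragments in astrocyte-like nuclei, ratios of 4.69 (2.87 to 7.44) and 4.83 (3.16 to 7.35), which were 2.96 and 3.15 when scaled to all gene starts. The most open start of Grin2d was at 4.09 (3.07 to 5.47) and 2.85 (1.91 to 4.2) in other GABAergic neuron-like nuclei, above the ratios of its window. Start and window differed for other genes, with 14 gene and class pairs past the fold higher at the start and not called in the window. The Shank1 start passed the fold in glutamatergic nuclei (2.02 and 2.21), where its window did not in sham. The starts of Gria1 (1.98 and 1.65), Gria3 (1.72 and 1.86), Grin2a (1.94 and 2.26) and Grin2b (1.83 and 2.29) were more open in SPN-like nuclei than in the other classes. None of these windows was called there. In the glutamatergic class, in which its window was called higher, the Grin2a start was at 1.45 and 1.89.

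Grin1 and Gria2 starts differed in astrocyte-like nuclei. Grin1 had 12 and 8 fragments at its start there, ratios of 0.221 (0.114 to 0.388) and 0.128 (0.0546 to 0.254). Gria2 had 44 and 64, ratios of 0.873 (0.628 to 1.19) and 1.0 (0.754 to 1.31), while its window was at 0.385 and 0.512. Scaled to all gene starts, the ratios were 0.139 and 0.0832 for Grin1 and 0.551 and 0.653 for Gria2.

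RefSeq promoter sequences, from 250 bases before to 50 after a start on GRCm38.p6, were matched to 20 of the 31 genes by symbol. GGGCGG, the box bound by Sp factors, was present on either strand in 13 of the 20, against 38.2% of 27025 genes with such a sequence. The motif holds G and C alone, and the median GC content was 66.2% for the most open of these promoters of each of the 20 genes and 52.7% for the first listed one of all genes. TGACGTCA, the cyclic AMP response element, was in 0 of 20 (2.03% of genes), and GCGCATGC, the core of the NRF-1 element, in 0 (3.05%). TGANTCA, the AP-1 site, was in Grin3b and Grm8 (8.97%). Of RE1, the element bound by the repressor REST that silences neuronal genes outside neurons, the first part TTCAGCACC was in Grm2 (0.433%) and the second part GGACAGCGC in Gria2 (0.477%).

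The promoters of Gria2 and Grm2 are shown for these RE1 parts and that of Grin2c for its start in astrocyte-like nuclei. They are on the strand of the gene, 5′ to 3′, with capitals on the RE1 parts and on GGGCGG, either strand.
Gria2 promoter, chr3:80802786-80803085, minus strand: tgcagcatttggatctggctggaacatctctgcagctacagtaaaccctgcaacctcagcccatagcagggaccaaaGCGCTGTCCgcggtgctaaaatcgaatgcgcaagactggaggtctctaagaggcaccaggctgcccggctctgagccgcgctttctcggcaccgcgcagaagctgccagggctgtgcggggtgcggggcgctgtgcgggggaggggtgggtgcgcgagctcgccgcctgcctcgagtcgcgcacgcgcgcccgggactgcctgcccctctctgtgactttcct
Grm2 promoter, chr9:106656060-106656359, minus strand: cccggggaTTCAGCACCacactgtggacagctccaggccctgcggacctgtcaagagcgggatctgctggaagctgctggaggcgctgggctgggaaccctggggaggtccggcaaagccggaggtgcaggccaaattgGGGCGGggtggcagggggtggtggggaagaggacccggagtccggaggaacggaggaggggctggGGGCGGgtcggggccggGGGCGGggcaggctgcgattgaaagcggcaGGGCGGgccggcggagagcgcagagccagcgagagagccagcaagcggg
Grin2c promoter, chr11:115267194-115267493, minus strand: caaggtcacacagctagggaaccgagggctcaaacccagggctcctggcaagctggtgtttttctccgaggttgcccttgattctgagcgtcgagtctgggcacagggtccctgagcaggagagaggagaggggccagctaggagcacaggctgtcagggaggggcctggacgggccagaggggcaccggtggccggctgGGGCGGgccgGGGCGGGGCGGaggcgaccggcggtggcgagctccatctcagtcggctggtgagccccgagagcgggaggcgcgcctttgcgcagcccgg

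Stroke was compared with sham inside the 4 classes with over 300 nuclei in each library, so as to set aside the differing shares of the classes. Of 124 gene and class pairs, 120 had at least 100 fragments. Of these, 4 passed 1.5-fold, all lower in stroke, and 65 were below 1. Of all genes tested in these classes, 0.799% to 3.44% were lower past the fold and 0.961% to 4.69% higher. Their median log2 ratio was also negative in each class, from -0.04 to -0.03. The share of all genes below 1 was not counted. With counts scaled to fragments over promoters, 2 pairs passed the fold and 46 were below 1. These 2 were Grm2 in SPN-like nuclei, lower, and Grm5 in astrocyte-like nuclei, higher. That scaling moved every log2 ratio up by 0.13 in SPN-like and 0.15 in astrocyte-like nuclei. Grm8 in SPN-like and Grin2a and Grin2b in astrocyte-like nuclei then fell short of the fold. With the planned marker gate alone 115 pairs had at least 100 fragments, of which 11 passed and 72 were below 1. All 115 had that minimum in both sortings, and 33 of them (10 in glutamatergic, 5 in SPN-like, 7 in other GABAergic and 11 in astrocyte-like nuclei) lay on the other side of 1 by the gate.

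Of those 11 pairs, 7 were in astrocyte-like nuclei (background 4.39% higher and 5.78% lower), where Grin1 (0.380), Shank1 (0.508), Grin2a (0.520), Shank3 (0.540), Grin2b (0.561) and Gria3 (0.565) were lower in stroke and Grin2c (1.62) higher. The others, all lower, were Grik5 (0.557) and Grin2a (0.642) in other GABAergic nuclei (2.8% and 6.69%), Grm2 (0.651) in SPN-like nuclei (3.53% and 5.31%) and Grik1 (0.629) in glutamatergic nuclei (3.65% and 7.4%). Grin2a and Grin2b in astrocyte-like and Grm2 in SPN-like nuclei passed the fold by both ways of sorting. Of these, Grm2 alone also passed it when the counts sorted by profile were scaled to fragments over promoters.

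The 3 smaller classes, as sorted by profile, are given as counts. In microglia-like nuclei 12 of 26 genes passed the fold higher in stroke and 1 lower (background 21.3% higher and 20.1% lower), against the 44 sham nuclei with the vascular markers given above. In OPC-like nuclei 2 of 23 were higher and 3 lower (4.35% and 8.67%), and in oligodendrocyte-like nuclei 0 of 15 were higher and 3 lower (9.68% and 8.87%).

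In glutamatergic neuron-like nuclei 0 of the 31 genes passed the fold (background 1.84% higher and 0.799% lower), and the median log2 ratio was -0.04 both for them and for all genes tested. Shank3 was lowest at 140.3 and 107 CPM (ratio 0.766, 0.718 to 0.816), then Grik1 at 50.9 and 39.2 CPM (ratio 0.770, 0.692 to 0.856), Grik5 at 164 and 141 CPM (ratio 0.859), Dlg4 at 93.5 and 80.7 CPM (ratio 0.864) and Grin2d at 51.1 and 44.3 CPM (ratio 0.866). Gria1 was highest at 277 and 329 CPM (ratio 1.19, 1.14 to 1.24), then Grid1 at 336 and 364 CPM (ratio 1.08), Grm7 at 323 and 340.2 CPM (ratio 1.05), Grik2 at 127 and 131 CPM (ratio 1.04) and Gria2 at 104 and 107 CPM (ratio 1.03). The NMDA genes Grin1 (1.0), Grin2a (0.967) and Grin2b (1.01) were close to 1. In the same nuclei the summed glutamatergic markers were at 1160.0 and 1082 CPM (ratio 0.933, with 10 of 15 lower), the SPN markers at 553 and 613 CPM (ratio 1.11, with 3 of 12 lower) and the other GABAergic markers at 189.9 and 211 CPM (ratio 1.11, with 5 of 20 lower), and their part in the member values was not tested. By the gate alone Grid1 was at 0.998 (0.903 to 1.1) and Grm7 at 0.917 (0.822 to 1.02), on the other side of 1. The NMDA genes were lower by the gate, with Grin2a at 0.837 (0.765 to 0.916), Grin2b at 0.918 (0.843 to 0.999) and Grin1 at 0.885 (0.716 to 1.09). Gria1 was at 1.04 (0.929 to 1.15), while Grik2 (1.07) and Gria2 (1.21) stayed above 1.

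In SPN-like nuclei 2 of 30 genes passed the fold, both lower (background 3.06% higher and 3.44% lower). Grm2 was at 21.6 and 10.8 CPM (ratio 0.499, 0.342 to 0.711), from 184 and 38 fragments, and Grm8 at 149 and 94.9 CPM (ratio 0.636, 0.562 to 0.718). Shank1 followed at 115 and 84.4 CPM (ratio 0.732), Grm5 at 368 and 279.8 CPM (ratio 0.761, 0.708 to 0.818) and Grik2 at 328 and 254 CPM (ratio 0.773, 0.717 to 0.834). Grm5 and Grik2 were genes higher in this class, whereas Grm2 was one of the genes lower in it.

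The highest ratios in SPN-like nuclei were those of Grik3 at 137 and 185 CPM (ratio 1.35, 1.23 to 1.49), Grik1 at 33.8 and 42.8 CPM (ratio 1.27, 1.03 to 1.55), Shank2 at 393 and 496 CPM (ratio 1.26), Grin3a at 41 and 51 CPM (ratio 1.24, 1.03 to 1.49) and Grm3 at 151 and 184 CPM (ratio 1.22). Among these genes, Grik1, Grik3 and Grin3a were called higher in the other GABAergic class, Grm3 was called lower in it and Shank2 was not called. By the gate alone Grik1 kept its call there, while Grik3 (1.05 and 1.08) and Grin3a (1.07 and 1.45) did not. In the same nuclei the summed SPN markers were at 2465 and 1799 CPM (ratio 0.730, with 9 of 12 lower), the summed markers of other GABAergic neurons at 592 and 663 CPM (ratio 1.12, with 7 of 20 lower) and those of glutamatergic neurons at 586 and 652 CPM (ratio 1.11, with 8 of 15 lower). The part of these shifts in the member values was not tested.

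In other GABAergic neuron-like nuclei 0 of 30 genes passed the fold (background 0.961% higher and 1.58% lower). Grm2 was lowest at 29.5 and 20.7 CPM (ratio 0.700, 0.562 to 0.866), then Grm4 at 109.5 and 81 CPM (ratio 0.739, 0.663 to 0.823), Shank3 at 133 and 107 CPM (ratio 0.804), Grin3b at 15.3 and 12.7 CPM (ratio 0.834) and Dlg1 at 98 and 85.4 CPM (ratio 0.872). Gria3 was highest at 63.7 and 77.7 CPM (ratio 1.22, 1.08 to 1.37), then Grm3 at 67 and 80.3 CPM (ratio 1.2), Grik1 at 153 and 178 CPM (ratio 1.16, 1.07 to 1.25), Gria4 at 160.5 and 173 CPM (ratio 1.07) and Dlg3 at 48.4 and 51.5 CPM (ratio 1.06). By the gate alone Grm4 was at 1.07 (0.875 to 1.3), Dlg1 at 1.12 (0.910 to 1.39) and Gria4 at 0.960 (0.794 to 1.16), on the other side of 1. The summed markers of the class were at 679 and 712 CPM (ratio 1.05, with 6 of 20 lower).

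In astrocyte-like nuclei 2 of 29 genes passed the fold, both NMDA subunits and both lower (background 4.69% higher and 3.25% lower). Grin2a was at 97.5 and 59.9 CPM (ratio 0.614, 0.523 to 0.720) and Grin2b at 276 and 178 CPM (ratio 0.645, 0.588 to 0.708). Grik5 followed at 82.9 and 59.5 CPM (ratio 0.718), Grin3b at 17.4 and 13.5 CPM (ratio 0.775) and Dlg4 at 129 and 104 CPM (ratio 0.806). At the other end were Grm5 at 88.4 and 125 CPM (ratio 1.41, 1.23 to 1.62), Grin2c at 31.8 and 42.6 CPM (ratio 1.34, 1.06 to 1.7), Gria2 at 38.7 and 47.7 CPM (ratio 1.23, 0.994 to 1.53), Grik2 at 62.4 and 73.4 CPM (ratio 1.18) and Gria3 at 25.1 and 28.7 CPM (ratio 1.14). By the gate alone Gria3 was at 0.565 (0.446 to 0.714) and Gria2 at 0.913 (0.762 to 1.09), both on the other side of 1, and the interval of Grm5 (1.07 (0.943 to 1.21)) included 1.

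In the same nuclei the summed astrocyte markers were at 2115 and 2106 CPM (ratio 0.996, with 10 of 15 lower). The summed glutamatergic markers were at 566 and 532 CPM (ratio 0.941, with 8 of 15 lower), the SPN markers at 453 and 409 CPM (ratio 0.903, with 5 of 12 lower) and the other GABAergic markers at 290.3 and 268 CPM (ratio 0.925, with 10 of 20 lower). Ependymal markers were at 182 and 128 CPM (ratio 0.701, 0.627 to 0.784, with 8 of 10 lower) and vascular markers at 394 and 441 CPM (ratio 1.12, 1.05 to 1.2, with 6 of 18 lower), while the markers of oligodendrocytes, their precursors and microglia had ratios of 0.963, 0.901 and 1.04. The median fragments of an astrocyte-like nucleus were 3906 in sham and 6098 in stroke, and the part of these differences was not tested.

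**Figure D5:**
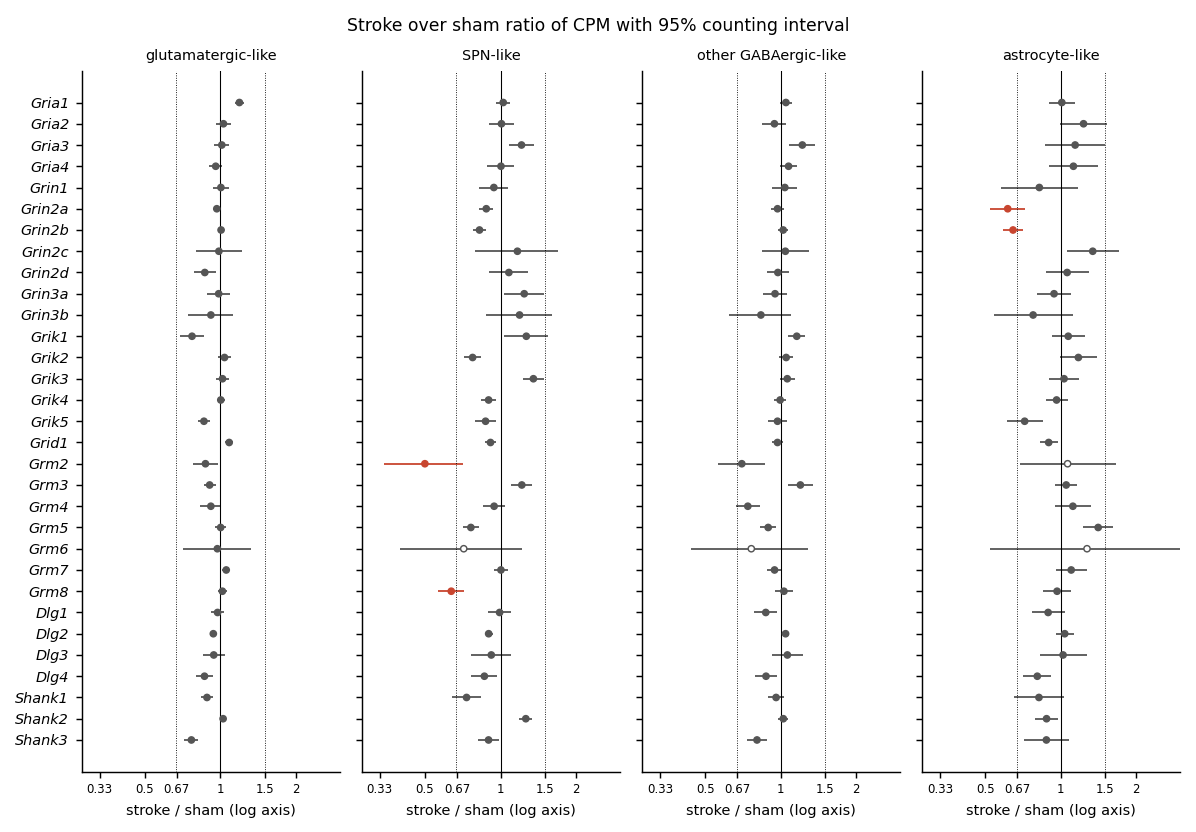
Ratio of stroke over sham CPM of the 31 genes in 4 classes, on a log axis, with the 95% counting interval and dotted lines at 1.5-fold. The 4 pairs past that fold, in red, are Grm2 (0.499) and Grm8 (0.636) in SPN-like and Grin2a (0.614) and Grin2b (0.645) in astrocyte-like nuclei, and open points had fewer than 100 fragments.

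A list of 39 partner genes was set beside the receptors, holding auxiliary subunits of AMPA and kainate receptors, Homer and Dlgap scaffolds and synaptic adhesion molecules. Over all kept nuclei 0 of the 39 passed the fold and 37 were below 1, with a median log2 ratio of -0.19. Pick1, which binds AMPA receptor tails, was lowest at 61.7 and 41.4 CPM (ratio 0.672, 0.638 to 0.707), then the AMPA auxiliary subunit Cacng3 at 107 and 74.1 CPM (ratio 0.690) and the scaffold Dlgap3 at 141 and 107 CPM (ratio 0.755). The highest were Shisa6 at 90.2 and 91.6 CPM (ratio 1.02), Cacng5 at 32.6 and 32.7 CPM (ratio 1.0) and Homer3 at 19 and 18.9 CPM (ratio 0.998). Inside classes, 1 of 36 partners passed the fold in astrocyte-like nuclei, on the higher side (background 4.69%). It was Shisa6, an AMPA auxiliary subunit, at 56.4 and 115 CPM (ratio 2.05, 1.74 to 2.42). In SPN-like nuclei 2 of 39 were lower (background 3.44%), which were Homer2 (0.640) and Olfm2 (0.654).

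By class as sorted by profile, 19 of the 39 partners (48.7%, background 16.6%) were lower in astrocyte-like and 25 (64.1%, background 14.0%) in microglia-like nuclei. Partners were not called by the gate alone, by which 0 members were lower in microglia-like nuclei. In SPN-like nuclei 8 were higher (background 5.24%), among them the kainate auxiliary subunits Neto1 (1.92 and 1.94) and Neto2 (1.69 and 1.56). Of the kainate subunits themselves, Grik2 was higher there (2.09 and 1.73), Grik1 was lower and Grik3, Grik4 and Grik5 were not called. In other GABAergic neuron-like nuclei 4 were higher (background 3.66%), with Grip1, which binds AMPA receptor tails, at 2.24 and 2.65. In OPC-like nuclei 3 were higher (background 7.03%), with Cacng4, an AMPA auxiliary subunit, at 4.12 and 3.07. Homer3, whose window overlaps another gene, was the 1 partner higher in astrocyte-like nuclei (background 15.2%), at 3.23 and 2.85.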

How the data were processed

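Single-nucleus ATAC-seq fragments of 1 sham and 1 stroke library were analysed. The authors made the deposited fragment lists and barcode tables with Cell Ranger ATAC 2.1.0 on mm10 (software and build per the labels), and the counts in them are whole-number, unnormalized read pairs, fragments or peak fragments per barcode. Barcodes called as cells with over 20% of fragments in peaks were kept. Fragments were counted over windows of 21728 protein-coding genes (GENCODE M21, chromosomes 1 to 19 and X) and given as counts per 1000000 fragments of the nuclei (CPM).

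Nuclei were first gated by fixed marker lists and all nuclei were then sorted again in 3 passes by the profile over other genes, so that gated nuclei could change class or lose it, a step beyond the marker gate that had been planned, added after the data were seen. Calls by the gate alone are given beside the others. Vascular and ependymal nuclei were assigned but are not reported. The members and lists were chosen with earlier results of these data known. Levels carry exact 95% Poisson intervals and ratios exact conditional binomial (Clopper-Pearson) intervals, for counting error only, and a count of 0 is given with a limit of 3 counts; there were no replicates and no p-values. Named genes are the 6 highest and 6 lowest per kb, the 5 highest and 5 lowest stroke ratios in each class, every member past 1.5-fold in a class, and 3 partners at each end, while other members are named beside them to complete their family. Further partners named by class were picked from those past the fold. Sites and starts were chosen as described with them, and sequences are from RefSeq (GRCm38.p6). Interval and ratio code was tested on simulated data. Python 3.11.15, numpy 2.4.6, pandas 2.3.3 and scipy 1.17.1 were used.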

Additional observations from a re-analysis of the deposited data

Results flagged for a closer look

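Both results below were singled out because a gene lay above 1 in stroke over sham in one class and below 1 in another, with counting intervals that exclude 1 in both. The ratios also had to differ by at least 1.5-fold, so that genes with smaller opposite shifts are not listed. The difference itself was not tested, since each group was 1 library. Grik1 had a ratio of 1.27 (1.03 to 1.55) in SPN-like nuclei and 0.770 (0.692 to 0.856) in glutamatergic neuron-like nuclei, a quotient of 1.64. Grm5 had a ratio of 1.41 (1.23 to 1.62) in astrocyte-like nuclei and 0.761 (0.708 to 0.818) in SPN-like nuclei, a quotient of 1.85. By the planned marker gate alone, Grik1 was at 1.25 (1.01 to 1.54) in SPN-like and 0.629 (0.481 to 0.815) in glutamatergic nuclei, on the same sides of 1, whereas Grm5 was at 1.07 (0.943 to 1.21) in astrocyte-like nuclei, with an interval that includes 1, and 0.845 (0.775 to 0.92) in SPN-like nuclei.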

How the results depend on the processing

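Of 31 genes, 28 were lower in stroke over all kept nuclei, and 15 when scaled to fragments over promoters, which moves all genes alike. The number past 1.5-fold was 0, but 3 for promoters alone, all lower, and 9 for all called barcodes, 8 lower and 1 higher, where 3.69% and 17.7% of all genes were higher and 1.35% and 18.5% lower. Of the 120 pairs compared within classes, 4 passed the fold, against 2 when scaled to promoters and 11 of 115 with the marker gate alone. Of the 4, Grm2 in SPN-like nuclei alone was among the 2, and the other was Grm5 in astrocyte-like nuclei, higher. Of the 120, 65 lay below 1, against 36 for promoters alone. The number of pairs behind the 36 is not given, so that these counts cannot be compared as shares. The median log2 ratio of all genes tested was also negative in each of these classes. Of gene and class pairs, 18 were higher and 67 lower, against 9 and 17 with the marker gate alone and 39 lower after 1 pass by profile. Of the starts, 5 were higher in astrocyte-like and 1 in glutamatergic nuclei, against 1 and 5 when scaled to fragments over all gene starts. The marker gate alone was the planned way to form classes, and the sorting by profile, the number of passes and the scaling of starts were chosen after seeing the data. Ratios turned to the other side of 1 for Grid1 in SPN-like nuclei of stroke (0.941) and Grik1 in OPC-like nuclei of sham (0.828) with promoters alone, for Grik1 in oligodendrocyte-like nuclei of sham with 1000 to 100000 fragments in peaks (0.907) or the marker gate alone (0.796), and for Grik2 in oligodendrocyte-like nuclei of sham with the marker gate alone (0.884). The cause was not tested. The other 73 values of these counts stayed within 1.5 times. Of the ratios of the 18 pairs called higher and the 4 pairs past the fold in stroke over sham, recomputed under the alternatives, 402 moved by less than their counting interval, 113 moved by more and 5 are the turned ones above. Of all 115 stroke over sham pairs tested by both sortings, 33 lay on the other side of 1 with the gate alone. Of the 18 pairs, Grik1 in other GABAergic nuclei passed the fold in all 13 alternatives and Grm7 in SPN-like nuclei in 3. The alternative without a minimum of fragments leaves every ratio as it was. Its part in the 402, the 13 and the 3 was thus fixed beforehand. No paired analysis was possible because there was a single library per group. With 1 library per group, leaving out a replicate was not possible either, and depth limits the microglia-like values of sham (173683 fragments) and the oligodendrocyte-like values most.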
